A study of Mus musculus with 13 samples.

Results

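The 35 genes whose symbols start with Trbv, out of the 57010 genes in the deposited lists, were followed from the early thymus to mature T cells. They are the variable segments of the T cell receptor (TCR) beta locus, and every symbol with that start was taken, whatever its counts. The series compared single-cell RNA kits on mouse thymus. In the Parse kits used here, fixed cells are barcoded by repeated splitting and pooling, the first barcode is set by the well a cell enters, and transcripts are counted as unique molecular identifiers (UMIs). The Parse WT benchmark held 4 thymic lobes of 2 female C57BL/6N mice aged 2 months. These lobes are named tenxP_1 to tenxP_4 in the cell table, with 2 first-round wells per lobe. The Parse Mini experiment held 4 lobes of 2 separate young female C57BL/6N mice, T-1-A, T-1-B, T-2-A and T-2-B, with 3 wells each. The labels do not say which lobes share a mouse, so p-values over the 8 lobes are too small. The same Parse WT library carried 16 other samples (CVS_C_1 to CVS_C_5, CVS_S_1 to CVS_S_6 and YD_C_1 to YD_C_5). The paper calls these 16 non-thymic. The labels give thymus and spleen, control and chronic stress only for the library as a whole. No tissue, age or treatment was therefore assigned to any of the 16. Tests on them compared cell classes within each sample, except an added comparison of their T cells with mature thymocytes. Their values are also set beside those of thymic classes without a test. The 10x Genomics libraries were not analysed here.

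A TCR beta chain is assembled in the thymus. The recombinase RAG joins a D to a J segment and then a V segment to the DJ block in double-negative (DN) thymocytes, which lack CD4 and CD8. A productive chain pairs with the pre-T alpha chain, the cell divides and becomes double positive (DP) for CD4 and CD8, and selected cells leave as CD4 or CD8 single positive (SP) cells. Allelic exclusion normally leaves 1 V segment in the beta chain of each mature T cell, and the segments read across a population describe its V use. Many clones share a V segment, and a clone is set by its join, which was not read here. Most V segments lie in a row upstream of the D, J and constant segments, whereas Trbv31 lies downstream of the constant segments in the opposite orientation.

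On GRCm38 (GENCODE M21) the 35 segments spanned chr6:40891229-41558452, with 34 on the plus strand and Trbv31 on the minus strand. The annotation lists 22 as V genes, all of which held UMIs, and 13 as pseudogenes, 7 of which held UMIs. UMIs fell on 29 members in all, 38165 UMIs together, and the other 6 (Trbv7, Trbv8, Trbv9, Trbv18, Trbv27 and Trbv28) stood at 0. The pseudogenes took 989 UMIs (2.59%), of which all but 72 belonged to Trbv24. The exon bases of a segment with UMIs, counted once where transcripts overlap, added up to 260 to 566, with a median of 368. The 2 Trbd genes and 14 Trbj genes, whose longest exons are 14 and 54 bases, held no UMI, while the 2 constant genes Trbc1 and Trbc2 held 320975.

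The last 40 bases of the segments that carry the results are shown here 5′ to 3′ from the GENCODE M21 transcripts. The capitals mark the TGT codon of the conserved cysteine with which the third complementarity-determining region (CDR3), the part formed by the join, begins. The first group leads in DP thymocytes, by UMIs.
Trbv2 (chr6:41047340-41047995): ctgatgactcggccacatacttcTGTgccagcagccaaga
Trbv3 (chr6:41048290-41048828): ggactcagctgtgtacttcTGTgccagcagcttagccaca
Trbv13-2 (chr6:41121396-41121832): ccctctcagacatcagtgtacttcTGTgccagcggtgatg
Trbv31 (chr6:41557691-41558452, minus strand): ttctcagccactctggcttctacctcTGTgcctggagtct
The second group was called in a comparison of CD4 with CD8 lineage cells, differed between wells (Trbv19) or was called higher in mature than in DP cells (Trbv17).
Trbv16 (chr6:41151740-41152230): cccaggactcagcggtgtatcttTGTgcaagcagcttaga
Trbv17 (chr6:41163062-41163556): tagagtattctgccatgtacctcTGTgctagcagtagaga
Trbv19 (chr6:41178375-41179048): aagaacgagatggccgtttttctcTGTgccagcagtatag
Trbv20 (chr6:41188273-41188977): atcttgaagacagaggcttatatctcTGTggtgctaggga
Trbv29 (chr6:41271394-41271881): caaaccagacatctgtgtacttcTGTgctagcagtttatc
The third group has near copies, so that reads may be split between them and their counts are uncertain.
Trbv12-1 (chr6:41113550-41114067): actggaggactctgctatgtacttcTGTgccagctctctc
Trbv12-2 (chr6:41118851-41119364): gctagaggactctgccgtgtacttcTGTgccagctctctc
Trbv13-1 (chr6:41116007-41116468): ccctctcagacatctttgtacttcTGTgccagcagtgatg
Trbv13-3 (chr6:41130147-41130585): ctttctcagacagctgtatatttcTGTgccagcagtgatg
The pseudogene Trbv24 is set beside the segment most like it, the V gene Trbv26.
Trbv24 (chr6:41218091-41218557): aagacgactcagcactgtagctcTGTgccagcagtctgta
Trbv26 (chr6:41227505-41227993): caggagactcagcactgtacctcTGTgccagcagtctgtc

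Over the last 250 bases, the median identity of the 595 segment pairs was 57.2%, and 5 pairs exceeded 80%. Trbv13-2 and Trbv13-3 were the closest pair, with 91.2% identity and a longest shared run of 50 bases. Trbv12-1 and Trbv12-2 were 88.1% identical with a run of 44 bases, and Trbv13-1 was 87.4% identical to Trbv13-2. Trbv24 and Trbv26 were 77.4% identical. In Trbv24 a tag stop codon stood in frame 2 codons before the TGT, and it was the only one of the 26 segments with TGTG near the end that held a stop in the 3 codons before it.

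A Trbv UMI was found in 12764 of the 41838 cells of the Parse WT lobes (30.5%) and in 5876 of the 20085 cells of the Mini lobes (29.3%), against 3099 of the 86786 cells of the other samples (3.57%). After quality control, 55710 thymic cells and 77326 cells of the other samples were clustered without any TCR or immunoglobulin gene, and clusters were named after marker genes. All class names below stand for such clusters, so that DN cells are DN-like cells and so on. Classes differed in depth, from a median of 7672 UMIs per cell in DN cells and 6666 in cycling DP cells to 2531 in all DP cells, 2408 in mature thymocytes (SP-CD4 and SP-CD8), 2299 in CD4 T and 2431 in CD8 T cells of the other samples. The barcode names of 460 cells occurred in both kits, which were separate experiments.

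DP thymocytes had the highest Trbv level of the classes followed here. Their level, as Trbv counts per 1000000 UMIs of the class (CPM), lay between 71.8 and 110.9 CPM over the 8 lobes (median 92.8). DN cells ran from 42.8 to 57.4 CPM (median 53.4), and mature thymocytes from 47.5 to 83.5 CPM (median 61.0). The DN level rose with the depth of the cell, from 19.6 CPM at 2000 to 4000 UMIs per cell and 31.1 CPM at 4000 to 8000 to 54.4 CPM at 8000 to 16000 and 59.2 CPM at 16000 to 25000, while the median doublet score of these cells rose from 0.333 to 0.7. In the same bins DP cells stayed between 85.8 and 90.2 CPM, and the part of doublets in the DN level was not tested. The DN and DP ranges over lobes did not overlap, while those of DP and mature cells did. CD4 T cells of the other samples stood between 13.9 and 57.5 CPM (median 40.3, 16 samples) and CD8 T cells between 14.1 and 48.9 CPM (median 34.9), in samples that held as few as 3 and 2 Trbv UMIs.

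Cells that should lack a rearranged beta chain gave the background, and it differed between the lobes and the other samples. In the other samples, 0.298% of 39271 B cells held a Trbv UMI (0.761 CPM, median 2818 UMIs per cell), as did 1.26% of 9003 myeloid cells (3.22 CPM, median 2793 UMIs). NK cells, which as a rule also lack one, stood higher, with a Trbv UMI in 3.32% of 1474 cells and 10.3 CPM (0 to 40.2 CPM over 14 samples, median 2546 UMIs). In the thymic lobes, 11.3% of 789 B cells (42.8 CPM) and 15.9% of 366 myeloid cells (24.5 CPM) did. The lobe tenxP_1 stood apart among the B cells, with 0.73% of 274 cells and 5.28 CPM at a median of 977 UMIs per cell. In the other 7 lobes 16.9% of 515 B cells held a Trbv UMI (11.1% to 20.9%, 48.2 CPM), at medians of 1800 to 5717 UMIs per cell. The same thymic B and myeloid cells also carried Rag1 at 392 and 260 CPM and Cd4 at 263 and 249 CPM, against 966 CPM of Rag1 and 590 CPM of Cd4 in DP cells. How far such DP transcripts entered the Trbv levels of other thymic classes was not tested.

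**Figure D1:**
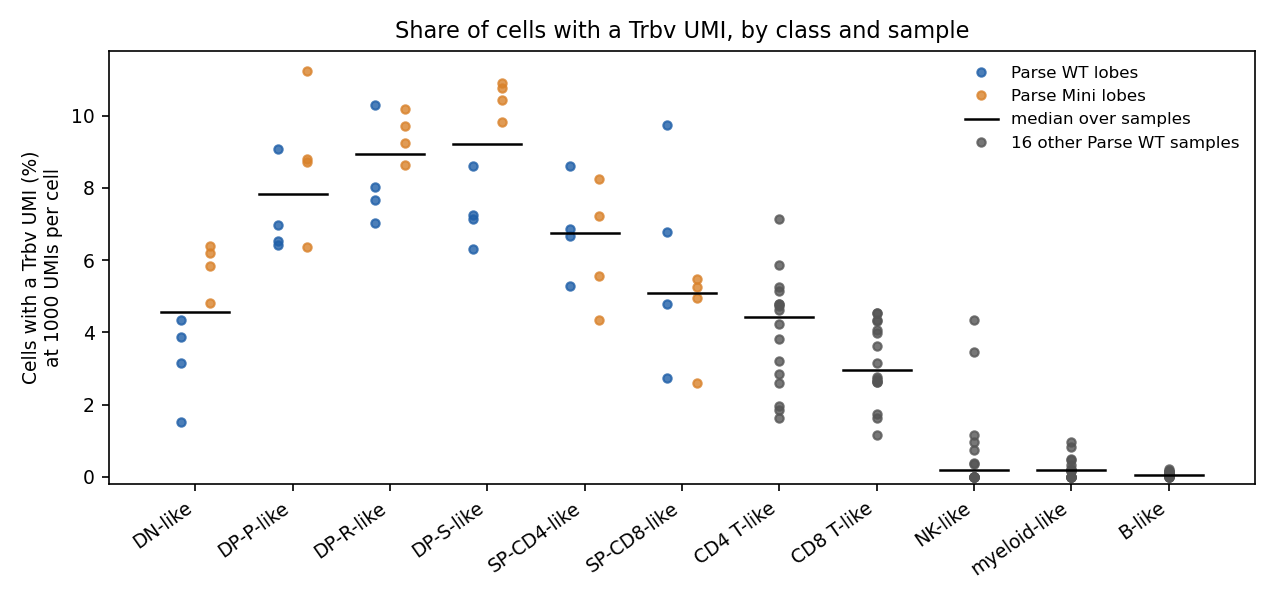
Share of cells with at least 1 Trbv UMI (y axis, percent) by class (x axis), with cells thinned to 1000 UMIs and shallower cells left out. Each point is a sample, blue for the 4 Parse WT lobes, orange for the 4 Mini lobes and grey for the 16 other samples, and bars mark medians. DP subsets lie highest, at medians near 8% to 9%, and B cells of the other samples lie near 0.

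For equal depth, cells were thinned to 1000 UMIs, which left out 1413 DP, 8 DN and 197 mature cells as too shallow. Of the rest, 8.71% ± 1.29 (SD, n = 8 lobes) of DP cells held a Trbv UMI, 4.51% ± 1.67 of DN cells and 6.01% ± 1.18 of mature thymocytes. Thymic B cells ran from 0 to 8.11% at this depth (median 3.73%), overlapping with all 3 classes, and thymic myeloid cells from 0 to 3.74% (median 0, 7 lobes). The DP share was above the DN share in 8 of 8 lobes, by 4.19 points (SE 0.698). The mature share was below the DP share in 8 of 8 lobes, by 2.70 points (SE 0.517). Without thinning the first order turned, with DN above DP by 6.40 points, since DN cells were the deeper class. Within DP cells, the pooled level was 80.4 CPM in cycling cells (DP-P), 93.2 CPM in rearranging cells (DP-R) and 87.2 CPM in cells with signs of selection (DP-S).

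The Trbv UMIs of the DN class lay mostly in cells that also held a coreceptor UMI. Of the 1522 DN cells, 391 held no Cd4, Cd8a or Cd8b1 UMI, and these held 31 Trbv UMIs in 29 cells (7.42%, 95% Wilson interval 5.21% to 10.4%), 16.1 CPM. Lobes lay between 0 and 26.98 CPM in this set, median 14.01. The other 1131 held 625 Trbv UMIs, 53.6 CPM, and ran from 46.4 to 71.0 CPM with a median of 60.4, so that the ranges did not overlap. The first set was shallower (median 4072 against 9213 UMIs per cell) and had more Il2ra, which marks DN cells (1154 against 507 CPM), and less Rag1 (228 against 505 CPM). At 1000 UMIs per cell, with shallower cells left out, 0.521% of the first set and 5.66% of the second held a Trbv UMI. Thymic myeloid cells, at 17.4 to 49.8 CPM in 7 lobes, overlapped with the first set.

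Single segments were tested with edgeR across all genes on UMIs summed per lobe and class, with the lobe as a block. Of the 35 members, 17 passed the filter on low counts in the DP against DN comparison. Of these, 13 were higher in DP and 0 lower at an adjusted p under 0.05, where 26.3% of the 11637 genes tested were higher and 52.8% moved in either direction. These members held 227 to 1026 UMIs each in DP and 12 to 82 in DN cells, so they passed the filter through DP cells, and their count gives no support to a direction. Without the filter, 27 members could be tested and 15 were higher, 0 lower, where 12.9% of 32391 genes were higher, 9.42% lower and 22.3% changed in either direction. The median log2 fold change of the 27 was 0.95, beside 0.27 for all genes of that fit.

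Trbv2, at the start of the main row, stood between 5.83 and 13.4 CPM in DP cells (median 11.6) and between 1.41 and 9.19 CPM in DN cells (median 3.57). Its ranges overlapped, but it was higher in DP in 8 of 8 lobes, by a log2 fold change of 1.27 ± 0.22 (SE; edgeR, adjusted p = 1.966e-05). Over 18 alternative settings, DN cells without a coreceptor UMI among them, the fold of Trbv2 lay between 1.09 and 4.11. Those DN cells held 31 Trbv UMIs over all segments, so a fold from that setting rests on few DN UMIs. Its neighbour Trbv3 ran from 4.21 to 14.01 CPM in DP and from 2.10 to 6.44 CPM in DN cells and rose by 1.09 ± 0.20 (adjusted p = 4.963e-05, higher in 8 of 8). Trbv31, the inverted segment at the other end of the locus, ran from 2.33 to 9.75 CPM in DP and from 1.15 to 4.93 CPM in DN cells and rose by 1.19 ± 0.23 (adjusted p = 9.371e-05, higher in 8 of 8). All 17 members that passed the filter had a positive log2 fold change, and they passed it through DP cells. The shared direction of Trbv2, Trbv3 and Trbv31 therefore says nothing particular about the ends of the locus. The pseudogene Trbv24 rose by 1.30 ± 0.44 (adjusted p = 0.01588) on 12 DN UMIs, and the V gene Trbv26, the segment most like it, by 0.86 ± 0.28. Trbv24 was called in neither kit alone (1.05 in the Parse WT and 1.80 in the Mini lobes, edgeR adjusted p = 0.1326 and 0.05604).

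The remaining higher segments lay between 0.76 (Trbv12-2) and 1.03 (Trbv1) on the log2 scale. Some of these calls rested on 1 lobe. Trbv1 was no longer called without tenxP_3 (0.95, edgeR adjusted p = 0.05422), Trbv19 without tenxP_2 (0.71, adjusted p = 0.05838), and Trbv13-1 and Trbv26 without tenxP_4 (0.69 and 0.79). Trbv1, Trbv12-2, Trbv15 and Trbv29 were also called in neither kit alone, though all 4 stood above 0 in both. In the Mini lobes alone 3 members were called, Trbv2, Trbv3 and Trbv19, and Trbv31 stood at 0.91 (edgeR, adjusted p = 0.09356). Trbv12-2 lost its call without any 1 of 6 lobes (all but T-1-A and tenxP_1), at 0.63 to 0.82. Trbv13-2, Trbv5, Trbv13-3 and Trbv20 did not pass, with log2 fold changes of 0.34, 0.49, 0.72 and 0.73. Trbv13-2 passed without T-2-A (0.45), Trbv5 without tenxP_1 (0.64) and Trbv20 without tenxP_4 (1.07). Of the 4 members that missed the threshold, Trbv13-2 had the most DN UMIs, 82, and its levels of 2.49 to 10.3 CPM in DN and 6.17 to 10.3 CPM in DP cells overlapped.

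From DP to mature thymocytes the direction was the opposite for most segments. Of the 16 members that passed the filter, 8 were lower in mature cells and 1 higher, where 28.8% of the 11080 genes tested were lower, 26.7% higher and 55.5% changed in either direction. These members held 10 to 46 UMIs each in mature cells and passed the filter through DP cells, so their count gives no support to a direction. Without the filter the median log2 fold change of 27 members was −0.97, beside −0.50 for all genes of that fit. Trbv31 ran from 1.13 to 6.18 CPM in mature and from 2.33 to 9.75 CPM in DP cells and fell by 1.28 ± 0.30 on the log2 scale (edgeR, adjusted p = 0.0002618, lower in 7 of 8 lobes). Trbv15 (−1.37 ± 0.43) and Trbv13-1 (−1.04 ± 0.31) were lower in 8 of 8 lobes. In the Mini lobes alone none of these 3 passed (edgeR, adjusted p = 0.07333 for Trbv31, 0.09566 for Trbv15 and 0.3542 for Trbv13-1), and no member did. Trbv15 held 11 UMIs in mature cells, so its fold rests on few counts.

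Trbv26 (−1.38), Trbv20 (−1.19), Trbv5 (−0.90), Trbv12-1 (−0.87) and Trbv13-2 (−0.59) were the other lower segments. Trbv26 rested on 10 and Trbv20 on 11 mature UMIs, and the others on 15 to 36. Trbv20 lost its call without tenxP_4 (−0.98, edgeR adjusted p = 0.06907), and Trbv12-1 without tenxP_1 (−0.72) or tenxP_2 (−0.66), while it stood at −1.34 without tenxP_4. Trbv5 lost its call without T-1-B, T-2-B, tenxP_1 or tenxP_4 (−0.73 to −0.82), and Trbv13-2 without T-2-A, tenxP_2, tenxP_3 or tenxP_4 (−0.62 to −0.43). Trbv2, the leading segment, changed by −0.43 and did not pass, but it did without tenxP_3 (−0.81), as did Trbv1 without tenxP_4 (−1.34).

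Trbv17 was the only member called higher in mature cells. It ran from 0 to 7.97 CPM in mature and from 0.842 to 3.28 CPM in DP cells, and its log2 fold change was 0.89 ± 0.38 (edgeR, adjusted p = 0.04102, higher in 6 of 8 lobes). Its rise was carried by the Parse WT lobes. It was not called without any 1 of the 4 Parse WT lobes (0.60 to 0.90) and stood at −0.48 in the Mini lobes alone. With DESeq2 its adjusted p was 0.1019. With no filter on low counts, of 27 members tested none was called higher and 9 were called lower, where 8.40% of 32075 genes were higher, 13.4% lower and 21.8% changed in either direction. Among the 9 was the pseudogene Trbv24, which the filter had left out. It changed by −2.56 ± 0.61 (edgeR, adjusted p = 0.000194, lower in 8 of 8 lobes), on only 3 mature UMIs beside 268 in DP cells.

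The other genes of the pathway gave a frame for these levels. Of the 19 tested from the constant, pre-TCR, CD3, recombinase and end-joining genes, 15 were higher and 4 lower in DP than in DN cells, where 26.3% of all genes tested were higher and 26.5% lower. Rag1, the catalytic subunit of the recombinase, rose by 1.11 ± 0.06 on the log2 scale, and the constant genes Trbc1 and Trbc2 rose by 0.22 and 0.72. Ptcra, the pre-T alpha chain that pairs with the first beta chains, fell by 1.25. From DP to mature cells 14 of the 19 were lower and 2 higher (28.8% and 26.7% of all genes tested), with Rag1 lower by 4.26, Trbc1 by 0.85 and Trbc2 by 0.91 on the log2 scale. Per 100 Trbc UMIs there were 8.25 Trbv UMIs in DN, 11.7 in DP and 13.9 in mature cells, and 19.9 in CD4 T and 20.8 in CD8 T cells, so the level of Trbv and its ratio to the constant genes ranked the classes differently.

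Trbv UMIs were spread over many segments in every class. No join was read, so a UMI need not stem from a productive chain. How far DP transcripts entered the segment use of other thymic classes was not tested. Segment use, the percentage of a class's Trbv UMIs on each segment, is given as the mean over samples. In DP cells Trbv2 took 10.8% ± 2.99 (SD, n = 8), with lobes from 6.78% to 14.4%, Trbv3 9.01% ± 3.44 (5.34% to 16.3%), Trbv13-2 8.51% ± 1.12 (6.61% to 10.4%) and Trbv31 7.04% ± 2.40 (3.24% to 10.1%). The ranges of these 4 overlapped. Trbv13-1, Trbv16, Trbv12-1 and Trbv19 followed with 5.68% to 6.39%.

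A longer segment can collect more UMIs per transcript. Per base of annotated exon, and rescaled to 100% over the segments, Trbv13-2 took 10.02% in DP cells, Trbv3 7.93% and Trbv2 7.69%, so that the order of the leading 3 in UMIs does not hold per length. Trbv13-1 (6.99%) and Trbv31 (6.74%) followed. Comparisons of 1 segment between classes are free of length.

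**Figure D2:**
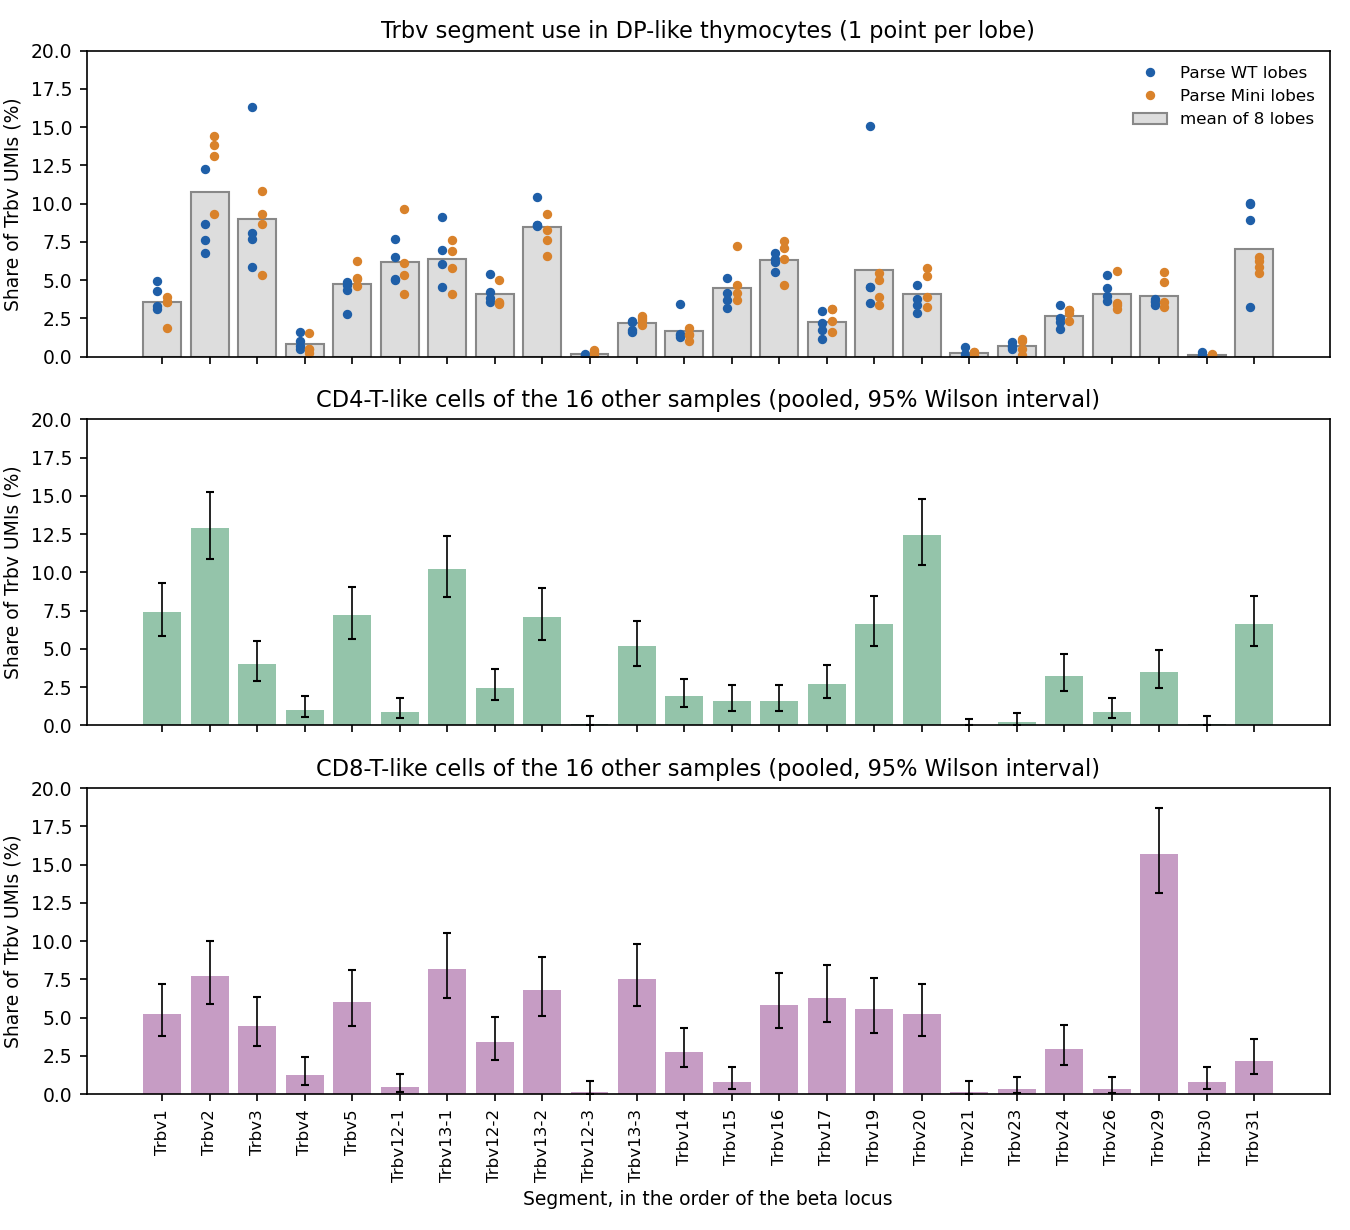
Segment use in DP thymocytes and in CD4 T and CD8 T cells of the other samples, as the percentage of the class's Trbv UMIs (y axis) on each segment in locus order (x axis). In the upper panel points are lobes (blue Parse WT, orange Mini) and bars their mean, and in the lower panels bars are pooled UMIs with 95% Wilson intervals. Trbv2 and Trbv3 lead in DP cells, Trbv2 and Trbv20 in CD4 T and Trbv29 in CD8 T cells, and the high Trbv19 point at 15.1% is the lobe tenxP_2.

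Between DN and DP cells, the mean use of Trbv13-2 differed most. It took 13.2% ± 4.24 of their Trbv UMIs (5.34% to 18%, median 14.1%), and the DP share was lower in 7 of 8 lobes, by a median of 5.18 points. In the DN cells without a coreceptor UMI it held 9 of 31 Trbv UMIs (29.03%, interval 16.1% to 46.6%), and in those with one 11.7%. Trbv2 took 8.05% of the DN UMIs, and DP was higher in 6 of 8 lobes. Only 38 to 190 Trbv UMIs per lobe stood behind the DN shares, and the shares themselves were not tested.

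In mature thymocytes Trbv3 (11.6% ± 4.78) and Trbv2 (11.2% ± 5.27) were close to each other, and Trbv17 took 5.82% against 2.30% in DP cells, higher in 7 of 8 lobes. Trbv31 took 4.69% against 7.04%, lower in 7 of 8. Lobes held 24 to 95 Trbv UMIs in this class, and the ranges of all 4 segments overlapped with those of DP cells. The number of equally used segments that would give the same diversity (the exponential of the Shannon entropy) was 16.2 in DN, 16.4 in DP, 14.9 in mature, 13.1 in CD4 T and 13.7 in CD8 T cells. It took 16 segments to reach 90% of the UMIs in the first 3 classes and 14 in the last 2. These numbers come from 395 to 10409 UMIs and were not tested.

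How many segments a cell shows depends on how many Trbv UMIs it holds. Of 31876 DP cells, 24225 held none, 6388 showed 1 segment (20.0%), 1081 showed 2 (3.39%), 151 showed 3, 28 showed 4 and 3 showed 5. Of 1522 DN cells, 354 showed 1, 87 showed 2, 18 showed 3 and 1 showed 4. Among 2259 mature thymocytes 327 showed 1, 18 showed 2 and 1 showed 3. In the other samples 32 of 6929 CD4 T cells and 23 of 5560 CD8 T cells showed more than 1, and so did 0 of 39271 B cells, only 3 of which held 2 Trbv UMIs and could have shown it.

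Among cells with 2 or more Trbv UMIs, where a second segment could be seen, thymocytes often showed one. The pooled share with 2 or more segments was 76.8% in DN (106 of 138 cells), 64.4% in DP (1263 of 1960), 44.2% in mature thymocytes (19 of 43), 28.8% in CD4 T (32 of 111) and 32.9% in CD8 T cells (23 of 70). Thymic B cells, part of the background, stood at 76.7% (23 of 30) and thymic myeloid cells at 71.4% (10 of 14), near the DN share. Over the 8 lobes the DP share was 64.5% ± 6.29 and the DN share 79.5% ± 8.80, with DP lower in 6 of 8 by 15.0 points (SE 4.82, exact two-sided permutation test over lobes, p = 0.03125, where the smallest possible is 0.007812). This call was lost (exact permutation p = 0.0625) when any 1 of 6 lobes was left out (all but T-1-A and tenxP_3), with differences of 12.6 to 16.4 points, and for cells with exactly 2 Trbv UMIs the difference was 8.48 points (exact permutation p = 0.1875).

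Mature thymocytes stood below DP cells in 6 of 7 lobes, by 16.3 points (SE 7.91, exact two-sided permutation p = 0.07812, smallest possible 0.01562), and did not pass. Without tenxP_1 they did (21.8 points, exact permutation p = 0.03125). CD8 T and CD4 T cells differed by 5.83 points in the 5 samples with enough cells (SE 6.79, exact two-sided permutation p = 0.5), a design that cannot go below 0.0625.

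A second measure asked how often 2 Trbv UMIs of the same cell fell on the same segment. Pooled over samples this match was 29.4% in DN, 39.4% in DP, 55.4% in mature, 73.3% in CD4 T and 70.3% in CD8 T cells. UMIs from different cells of a class, also pooled over samples, matched in 5.99%, 6.07%, 6.44%, 7.49% and 7.11% of pairs. The pooled match within a cell was thus several times the match between cells in every class. Single samples varied more. In CD8 T cells of CVS_C_5 the match between cells was 28.31% and the match within a cell 46.15%. DP exceeded DN in 8 of 8 lobes, 38.9% ± 5.07 against 27.8% ± 6.24, by 11.1 points (SE 2.05, exact two-sided permutation p = 0.007812, the smallest that 8 lobes allow), at unequal depth of the classes. For cells with exactly 2 UMIs it was 8.48 points and did not pass. That is the segments-per-cell difference with its sign turned, by construction. The differences between mature and DP cells (12.6 points, 7 lobes, exact permutation p = 0.1094) and between CD8 T and CD4 T cells (−7.36 points, 5 samples, exact permutation p = 0.375) did not pass.

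The share of cells with a second segment rose with the depth of the cell. In DP cells with exactly 2 Trbv UMIs, 37.2% held 2 segments at 1000 to 2000 UMIs per cell, 44.6% at 2000 to 4000, 60.3% at 4000 to 8000, 69.1% at 8000 to 16000 and 76.0% at 16000 to 25000. The median doublet score of all DP cells of a bin, whatever their Trbv UMIs, rose over the same bins from 0.0333 to 0.7. The part of doublets in the second segments was not tested. The paper's own doublet calls covered a far larger share of the Parse cells than was removed here. In the 3 bins that held DN cells with exactly 2 Trbv UMIs, the intervals of DN and DP cells overlapped. At 4000 to 8000 UMIs, 2 of 6 DN cells held 2 segments (33.3%, interval 9.68% to 70.0%). At 8000 to 16000 UMIs 71.2% of 59 DN cells (58.6% to 81.2%) and 69.1% of DP cells (64.4% to 73.5%) did, and at 16000 to 25000 UMIs 69.0% of 29 DN cells (50.8% to 82.7%) and 76.0% of DP cells (66.6% to 83.5%). The pair match within a cell also moved with depth. It was 44.4% in DN and 44.7% in DP cells at 4000 to 8000 UMIs, 29.01% and 33.99% at 8000 to 16000, and 28.8% and 25.3% at 16000 to 25000, where the order of the classes turned.

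T cells of the other samples were fewer. CD4 T cells stood at 22.9% of 35 cells at 2000 to 4000 UMIs (interval 12.1% to 39.02%) and 22.7% of 44 cells at 4000 to 8000 (12.8% to 37.0%), below the intervals of DP cells in the same bins, and 4 of 5 CD4 T cells held 2 segments at 8000 to 16000. CD8 T cells stood at 6 of 15 cells at 2000 to 4000 UMIs, an interval of 19.8% to 64.3% that spans the DP share, at 34.5% of 29 cells at 4000 to 8000 (19.9% to 52.7%) and at 3 of 10 cells at 8000 to 16000.

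**Figure D3:**
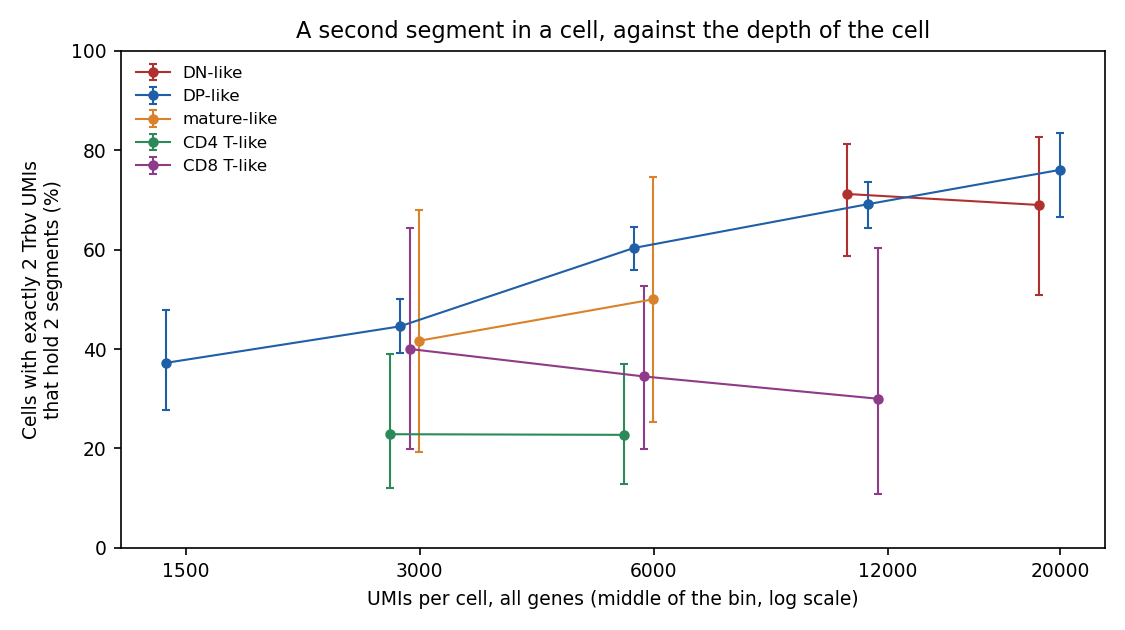
Cells with exactly 2 Trbv UMIs that hold 2 segments (y axis, percent, 95% Wilson intervals) against UMIs per cell over all genes (x axis, log scale, bin middles, points set slightly apart), for bins with 10 or more such cells. DP cells rise from 37.2% to 76.0%, DN cells lie at 71.2% and 69.0% in the 2 bins they share with DP cells, with overlapping intervals, CD4 T cells stay near 23%, and mature (5 of 12 and 6 of 12 cells) and CD8 T cells have wide intervals.

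Between the CD4 and CD8 lineages, segment levels were called different only in the other samples, which held more Trbv UMIs. Whether the lineage difference itself differed from the thymus was not tested. No member passed the filter on low counts there, so every gene with at least 1 UMI was tested, on 890 Trbv UMIs of CD4 T and 649 of CD8 T cells in 16 samples with the sample as a block. With the filter no member was left to test, so no call was possible. Of 24 members tested, 2 were higher and 3 lower in CD8 T cells, where 4.05% of the 27522 genes tested were higher, 5.35% lower and 9.40% changed in either direction. A further 3 were under 0.05 only before adjustment.

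Trbv29 was the segment with the largest such rise. In CD8 T cells it ran from 0 to 24.3 CPM with a median of 4.55, and in CD4 T cells from 0 to 7.94 CPM with a median of 1.17. It was higher in CD8 T cells in 14 of 16 samples, with a log2 fold change of 1.90 ± 0.31 (edgeR, adjusted p = 4.057e-08). Pooled, it took 15.7% of CD8 T UMIs (interval 13.1% to 18.7%) and 3.48% of CD4 T UMIs (2.47% to 4.90%). Trbv20 moved the opposite way, from 0 to 8.64 CPM (median 0.759) in CD8 T and from 0 to 8.74 CPM (median 4.81) in CD4 T cells, lower in CD8 T in 14 of 16 samples, with a log2 fold change of −1.41 ± 0.31 (adjusted p = 0.000121). It took 12.5% of CD4 T UMIs, level with Trbv2 at 12.9%, and 5.24% of CD8 T UMIs.

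One sample stood apart in Trbv29. In CVS_C_5, 36 of 72 Trbv UMIs of CD8 T cells lay on Trbv29 and 13 (18.1%) on Trbv16. These came mainly from a cluster of 284 of its cells, where 31 cells held Trbv29. In the same cluster CVS_C_3 had 99 cells, with 5 of 21 Trbv UMIs on Trbv29 (23.8%, interval 10.6% to 45.1%) and 0 on Trbv16. The CD8 T cells of the YD_C samples lay mostly in another cluster, in which Trbv29 took 7.83% to 15.4%. Without CVS_C_5, Trbv29 still took 11.4% of CD8 T UMIs (interval 9.09% to 14.3%) against 3.62% of CD4 T UMIs. Over 21 alternative settings, each single sample left out included, Trbv29 stayed between 1.5 and 2.25 and Trbv20 between −1.56 and −1.29 on the log2 scale and both kept their calls.

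The other 3 calls were less firm. Trbv31 was lower in CD8 T cells by a log2 fold change of −1.59 ± 0.44 (edgeR, adjusted p = 0.00469) and was not called without YD_C_1 (−1.25), with DESeq2 (−1.30, adjusted p = 0.08483), without the sample block (−1.52) or with classes set by coreceptor UMIs (−0.85). Trbv2 was lower (−0.89 ± 0.28, adjusted p = 0.01814) and lost its call without CVS_C_5, CVS_S_3, YD_C_1 or YD_C_3 (−0.85 to −0.73), with DESeq2 (−0.87) and without the block (−0.82). Trbv16 was higher (1.48 ± 0.51, adjusted p = 0.04292) and lost its call without any 1 of CVS_C_5, CVS_S_4, YD_C_2, YD_C_3, YD_C_4 and YD_C_5 (1.26 to 1.52), without the block (1.51) and with coreceptor classes (1.47). The count of calls fell from 5 to 3 without CVS_C_5 and likewise without YD_C_3, and Trbv1 passed without YD_C_1 (−1.13).

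In the thymus the lineages held 209 (SP-CD4) and 186 (SP-CD8) Trbv UMIs. Again no member passed the filter, and of 23 tested without it edgeR called 0, with 1 under 0.05 before adjustment, where 7.75% of 20359 genes were called, 4.56% higher and 3.19% lower. DESeq2, run with the filter, had no member to test. That member was Trbv2. It ran from 4.19 to 16.3 CPM in SP-CD4 (median 10.6) and up to 11.7 CPM in SP-CD8 cells (median 2.68), and was lower in SP-CD8 in 8 of 8 lobes, by 1.31 ± 0.50 on the log2 scale (adjusted p = 0.09266). It took 16.3% ± 5.41 of SP-CD4 and 6.16% ± 6.98 of SP-CD8 UMIs. Trbv29 (0.95 ± 1.04), Trbv20 (−0.70 ± 1.22) and Trbv31 (−1.67 ± 0.91) had log2 fold changes of the same sign as in the other samples, Trbv16 (−0.12 ± 0.60) had the opposite sign, and none of these passed.

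**Figure D4:**
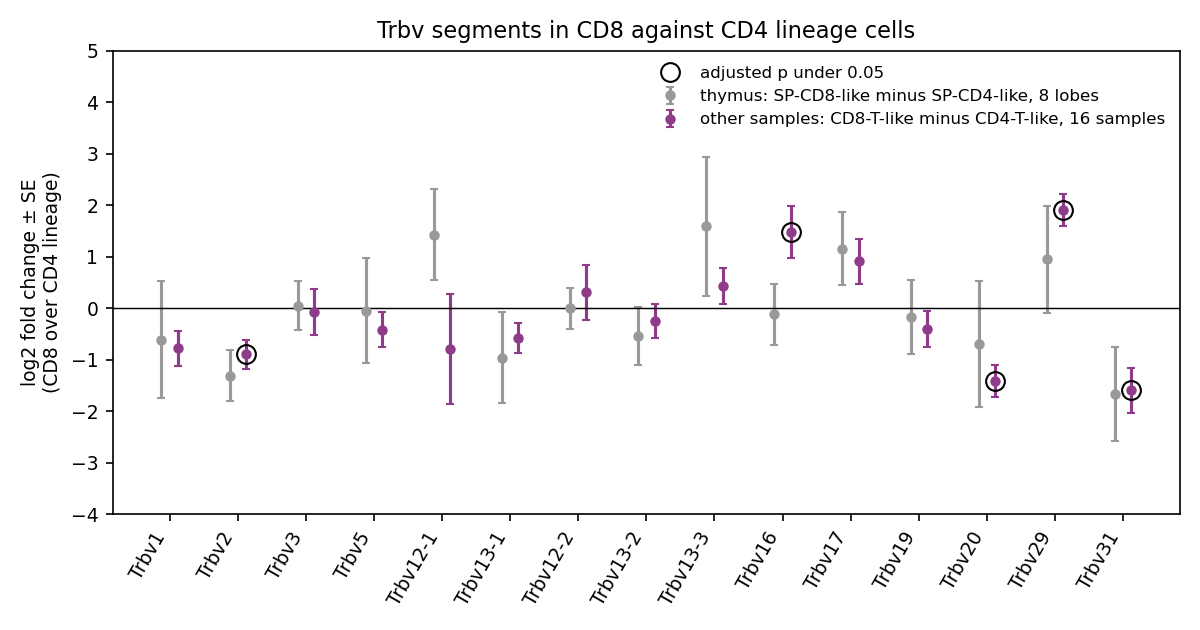
Log2 fold change of CD8 over CD4 lineage cells (y axis, bars are 1 SE) for the 15 segments with at least 5% use in a class (x axis), in the 8 thymic lobes (grey) and in the 16 other samples (purple), fitted without a filter on low counts. Circles mark adjusted p under 0.05, which only the other samples reach: Trbv29 and Trbv16 higher, Trbv2, Trbv20 and Trbv31 lower.

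T cells of the other samples (CD4 T and CD8 T together) were also set against the mature thymocytes of the 4 Parse WT lobes, a comparison added after the values were seen. Tissue, age, treatment and mice cannot be told apart in it. Of 24 members tested, 3 were lower in the other samples and 0 higher, where 6.80% of 28186 genes were lower and 13.2% changed in either direction. Trbv12-1 ran from 0 to 0.924 CPM in the other samples and up to 5.49 CPM in the lobes, with a log2 fold change of −2.87 ± 0.68 (edgeR, adjusted p = 0.002716), and lost its call without tenxP_4 (−1.87) and with DESeq2 (adjusted p = 0.05817). Trbv3 ran from 0 to 2.78 CPM against 3.84 to 9.96 CPM, with no overlap (−1.87 ± 0.48, adjusted p = 0.006303), and lost its call without tenxP_3 (−1.59). Trbv23 (−2.68) rested on 4 and 5 UMIs and lost its call without tenxP_2 (−1.66) or tenxP_4 (−2.62). The count fell from 3 to 1 without tenxP_4, and Trbv16 passed without CVS_C_5 (−1.89) or YD_C_4 (−1.80).

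Segment use also differed between wells of 1 lobe, which hold the same cell suspension. In lobe tenxP_2, Trbv19 took 413 of 1683 Trbv UMIs in well C9 (24.5%, interval 22.5% to 26.7%) and 53 of 1482 in well C10 (3.58%). Its share lay between 2.48% and 24.5% in the 20 thymic wells (median 4.18%). The 413 UMIs lay in 304 cells with at most 5 in 1 cell, in all 9 sublibraries, between 20.4% and 27.6% in the 8 large ones. The share was higher in C9 than in C10 in DN, DP, mature, innate-like T and B cells alike. In DP cells Trbv19 took 24.01% in C9 and 3.89% in C10. In thymic B cells it took 8 of 22 Trbv UMIs in C9 (36.4%, interval 19.7% to 57.05%) and 0 of 9 in C10 (upper limit of the interval 29.9%). Without well C9 the rise of Trbv19 from DN to DP was 0.74 on the log2 scale (edgeR, adjusted p = 0.03471) in place of 0.97.

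Other segments parted between wells as well. In lobe tenxP_3, Trbv3 took 19.6% in well C12 and 11.1% in C11, and Trbv13-2 took 18.6% in C11 and 5.53% in C12. A further count used the share of the well's UMIs over all genes, so differences in the total Trbv level of the wells enter it. It took each segment in each Parse WT lobe where it had 50 to 500 UMIs. The 95% intervals of its 2 wells did not overlap in 23 of 70 cases (32.9%), beside 13.6% of 21742 cases over all genes with the same counts. By the same share, the median difference between the wells was 0.509 on the log2 scale for the segments and 0.266 for all genes.

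**Figure D5:**
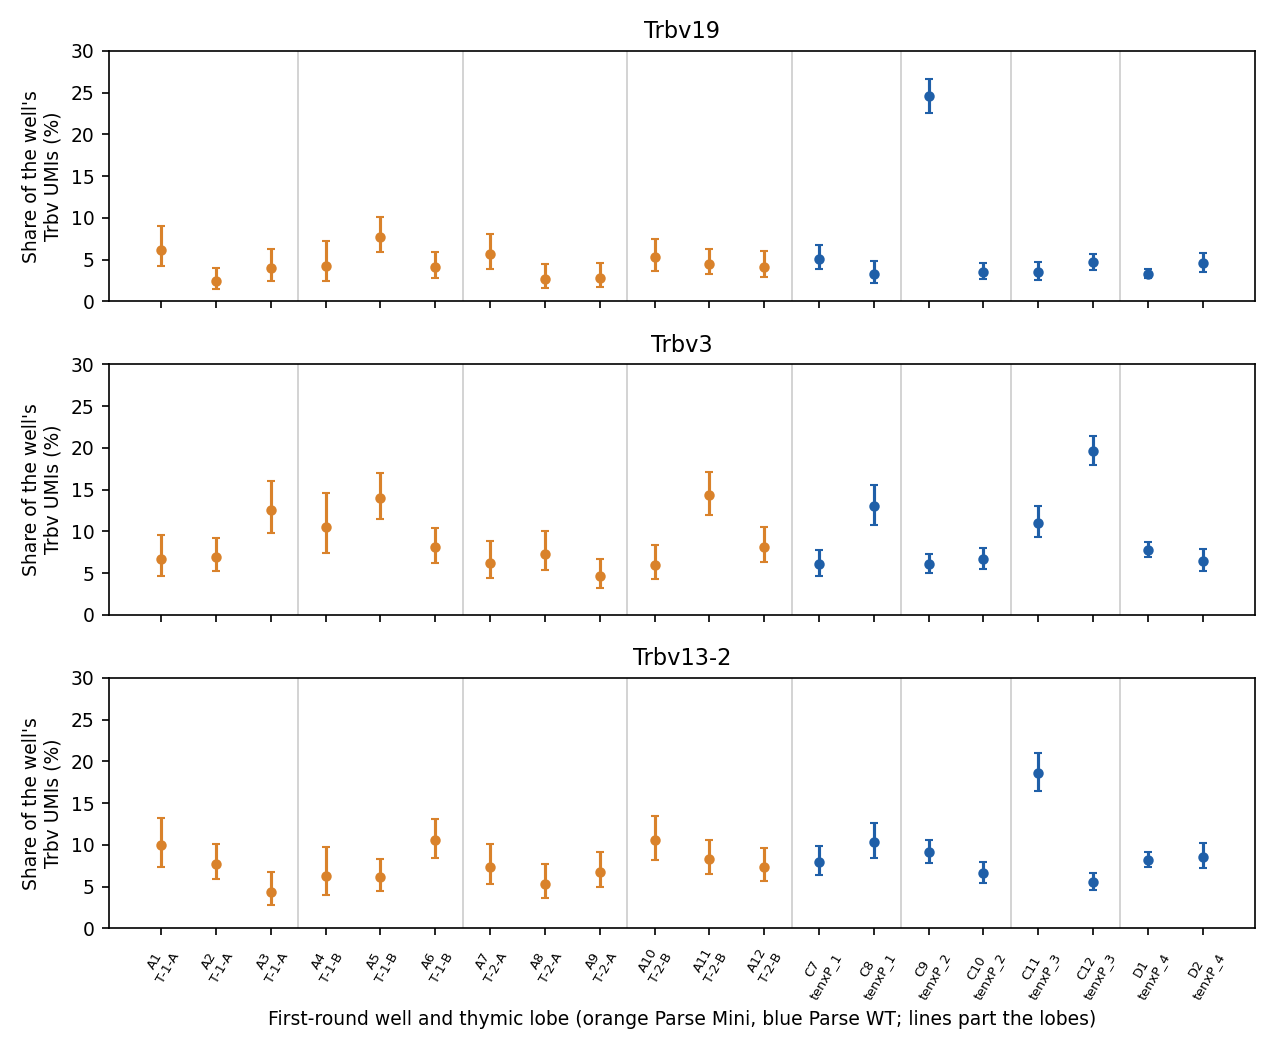
Share of each first-round well's Trbv UMIs (y axis, percent, 95% Wilson intervals) on Trbv19, Trbv3 and Trbv13-2 in the 20 wells of the 8 lobes (x axis, grey lines part the lobes, orange Mini, blue Parse WT). Trbv19 reaches 24.5% in well C9 and stays at 3.58% in the other well of that lobe, Trbv3 is highest in C12 and Trbv13-2 in C11.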

How the data were processed

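Per the labels and the study's methods, the authors ran split-pipe on each Parse sublibrary against mm10, called cells and combined the sublibraries. The authors deposited the raw counts, not normalized, 776766947 UMIs in 128624 cells of the Parse WT kit and 120510449 UMIs in 20085 cells of the Mini kit. The split-pipe version, the annotation release, the strand rule and the treatment of reads that fit several segments were not stated in the sources at hand. Parse cDNA is made from the whole transcript, so a UMI falls on a V segment only when its fragment does.

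The tissue sample and first-round well of each cell were taken from the cell tables. Kept cells held 500 to 25000 UMIs, of which no more than 15% were mitochondrial. Doublet scores came from simulated doublets (30 neighbours), and the 5% highest of each sample were removed. Scrublet and scDblFinder were not used. With scDblFinder the paper called several times that 5% of both Parse libraries doublets, so doublets may remain among the kept cells. Clusters (Leiden, resolution 2, 30 components of 2000 genes, without TCR and immunoglobulin genes, 38 thymic and 53 other clusters) were named from marker lists, and clusters with mixed or fewer than 3 markers stayed unnamed. Members and lists were chosen with earlier results of these data known. Segments named were those with at least 5% mean use in DN, DP, SP-CD4, SP-CD8, CD4 T or CD8 T cells, and up to 5 others with the largest called change per fit. Trbv23 and other segments named outside this rule were added after the data were seen.

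UMIs were summed per sample and class of at least 20 cells (323450 to 32559139 UMIs per sum in the DP against mature fit) and tested with edgeR's quasi-likelihood test (TMM, filterByExpr, Benjamini-Hochberg over all genes tested, sample as block). Both classes come from 1 suspension per sample, which is the source of the pairing. Cells of at least 1000 UMIs were thinned to 1000 by a random draw, and shallower cells were left out of these shares. Shares over samples used exact sign-flip permutation tests. A sample needed 3 cells with 2 Trbv UMIs in both classes. Intervals are 95% Wilson, the upper limit of a count of 0 is 3 counts, and both cover counting error only. Scripts were tested on simulated data. Alternatives were DESeq2, other size factors, no filter, no block, each kit alone, other doublet and depth limits, coreceptor classes and each sample left out. Python 3.11.15, numpy 2.4.6, pandas 2.3.3, scipy 1.17.1, scikit-learn 1.9.0, leidenalg 0.10.2, R 4.3.3, edgeR 4.0.16, limma 3.58.1 and DESeq2 1.42.0 were used.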

Additional observations from a re-analysis of the deposited data

Results flagged for a closer look

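In 6 of 69 groups of 8 lobes checked, the share of 1 segment in 1 lobe lay beyond Dixon's 95% limit, which chance exceeds in about 1 of 20 groups. Trbv19 took 15.1% of the Trbv UMIs of DP cells in tenxP_2, where the next lobe had 5.46% and the median was 4.58%. This is the lobe of well C9. The other 5 rest on few UMIs. In DN cells of tenxP_1, which held 38 Trbv UMIs, Trbv12-2 took 15.79% (next lobe 6.32%) and Trbv24 took 10.53% (next 4.17%). In mature thymocytes Trbv15 took 10.53% in T-1-B (next 4.65%), Trbv26 took 11.11% in T-1-A (next 3.33%) and Trbv24 took 4.167% in T-2-A (next 1.67%).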

How the results depend on the processing

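The 660 values of segment use recomputed under other settings moved by less than the spread between samples. The share of cells with a Trbv UMI turned from DP above DN by 4.19 points to DN above DP without thinning (−6.403), by construction, since DN cells are deeper. Leaving out 1 lobe gave 3.58 to 4.399 points, and −2.959 to −2.396 for mature minus DP. For cells with exactly 2 Trbv UMIs, DP minus DN was −8.483 points for segments per cell (exact permutation p = 0.1875). The pair match of these cells, 8.483, is the same result with its sign turned, by construction. Leave-one-out ranges were −17.38 to −12.59 for segments per cell in DP minus DN, −21.78 to −11.24 in mature minus DP and 1.035 to 10.26 in CD8 T minus CD4 T, and for the pair match 10.28 to 12.47, 7.746 to 16.63 and −12.86 to −1.893. With cells up to 4000 UMIs the pair match of CD8 T minus CD4 T was 9.077 (4 samples, not past the threshold in either). A further 9 settings gave no value for want of cells with 2 UMIs.

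The DP against DN count of 13 was 8 in the Parse WT lobes alone and 3 in the Mini lobes alone, with fewer samples in each, and 11 to 14 with 1 lobe left out. Over 18 alternative settings, DN cells without a coreceptor UMI among them, Trbv2 rose by 1.09 to 4.11 on the log2 scale. Trbv3 rose by 0.79 to 2.52, Trbv31 by 0.91 to 2.81, Trbv29 by 0.79 to 7.72 and Trbv13-1 by 0.37 to 8.41. The DN cells without a coreceptor UMI held 31 Trbv UMIs on 14 segments, 9 of them on Trbv13-2. A fold from that setting therefore rests on few or no DN UMIs of the segment, and its size is not a measure of the change. Trbv2 and Trbv3 kept their calls in all 18. The count of 9 for mature against DP was 6 in the Parse WT lobes alone and 0 in Mini alone, where Trbv17 stood at −0.48, and 6 to 9 with 1 lobe left out. For CD8 T against CD4 T the filter left no member to test. With every gene the count was 5, then 2 with DESeq2, 3 with coreceptor classes and 3 to 5 with 1 sample left out. For T cells of the other samples against mature thymocytes the filter again left no member to test. With every gene the count was 3, then 1 with DESeq2, 5 with the Mini lobes added and 1 to 4 with 1 sample left out. The causes of the changes between settings were not tested.

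Without the replicate block, which pairs the classes of a sample, the counts were 11 for DP against DN and 7 for mature against DP. For CD8 T against CD4 T it was 2, where Trbv29 (1.88) and Trbv20 (−1.29) were called. In the thymic lineages the filter left no member to test. Depth limits the smaller classes, with as few as 24 Trbv UMIs in a lobe for mature thymocytes and 3 and 2 in a sample for CD4 T and CD8 T cells.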

Other observations

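Some pairs of segments shared a DP cell more often, and others less often, than their shares alone would give. Of 1732 pairs of segments in DP cells, 65 joined Trbv2 with its neighbour Trbv3, where the shares of both give 33.3. Trbv12-2 with its neighbour Trbv13-2 occurred 27 times (13.5 from the shares), and Trbv13-2 with its near copy Trbv13-3 occurred 14 times (6.98 from the shares). The pseudogene Trbv24 stood beside Trbv31 in 20 cells (7.13 from the shares). These are 7 places apart when segments are ordered by coordinate, but Trbv31 lies outside the main row, downstream of the constant segments. Trbv3 with Trbv13-2, which are not neighbours, occurred 29 times (29.3 from the shares). Neighbours were not alike. Trbv3 with Trbv4 (7 against 2.89) stood above its shares, and closer to them were Trbv12-1 with Trbv13-1 (16 against 14.5), Trbv13-1 with Trbv12-2 (8 against 9.95), Trbv16 with Trbv17 (4 against 5.14) and the near copies Trbv12-1 and Trbv12-2 (9 against 9.63). Trbv5 with Trbv19 (1 against 9.91) and Trbv12-1 with Trbv13-2 (9 against 19.8) stood below. These counts pool lobes and wells with unequal segment use, were picked by size and were not tested.

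Thymic innate-like T cells held 292 Trbv UMIs in 760 cells (51.3 CPM), led by Trbv13-2 with 9.93%. Thymic B cells, part of the background, stood near this level, at 42.8 CPM, or 48.2 CPM without tenxP_1. Thymic myeloid cells stood lower, at 24.5 CPM. Among cells with 2 or more Trbv UMIs, a second segment showed in 76.6% of innate-like T cells (49 of 64) and 76.7% of thymic B cells (23 of 30). How far background entered the innate-like T values was not tested. Regulatory T cells of the other samples held 241 in 1748 cells (48.9 CPM), led by Trbv13-1 with 10.4%.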
